A study of Homo sapiens with 4 samples.

Results

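The zinc finger gene clusters of human chromosome 19 were examined for acetylation of histone H3 at lysine 9 (H3K9ac) in T98G cells, an established human glioblastoma cell line. A called H3K9ac region was counted as a member when its midpoint lay in 1 of 5 windows of chromosome 19 on build hg19. Window 1 runs from position 19700000 to 24600000, window 2 from 36700000 to 38300000, window 3 from 44200000 to 45000000, window 4 from 52300000 to 54000000 and window 5 from 56100000 to 59128983. The windows span 12.0 Mb together and held 729 of the 66131 regions in both lists, 302 of 26828 in the control library and 427 of 39303 in the RBBP4 library. The remaining 3015 regions of chromosome 19, 1127 and 1888 in these libraries, were the reference. Windows were fixed by position and used no measured value, although they were chosen with earlier results of these data known.

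The control cells (shNT) carried a lentiviral control shRNA, labelled NT, and the other cells (shRBBP4) carried a lentiviral shRNA that targets RBBP4. The RBBP4 protein binds histones and is a subunit of deacetylase, methyltransferase and chromatin assembly complexes. Both populations were T98G at passage 4, and chromatin was precipitated with the same rabbit monoclonal antibody against H3K9ac. Each shRNA has 1 H3K9ac library and 1 input library, and the inputs were not analysed here. With 1 library per shRNA no difference has a replicate check, and no p-value was computed. Intervals below are 95% intervals that cover counting error only and treat regions as independent, although neighbouring regions lie in groups and the libraries share most of their sites. The depth of each library is unknown. The labels give neither the number of hairpins nor whether cells were pooled or cloned, and the level of RBBP4 and the identity of the line were not checked here.

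KRAB zinc finger proteins are DNA-binding repressors. Their zinc fingers read a DNA sequence, often within a transposable element, and their KRAB domain recruits the corepressor TRIM28, which brings a methyltransferase for H3 lysine 9. Their genes multiplied by tandem duplication and lie side by side on chromosome 19. In many cell types the bodies of these genes carry methylated H3 lysine 9, while the promoters of the expressed copies are acetylated, so that acetylated and methylated chromatin alternate over short distances. In the RefSeq gene order of build GRCh38, used here for names and neighbours alone, 266 of the 1451 protein-coding genes of chromosome 19 have a symbol beginning with ZNF, ZFP, ZSCAN, ZKSCAN, ZIM or ZIK or are PEG3, of 574 such genes in all. The longest uninterrupted runs of such neighbours hold 27 genes from ZNF737 to ZNF681, 24 from ZNF565 to ZNF793, 24 from ZNF627 to ZNF791 and 23 from ZNF772 to ZNF256. These runs were not matched to the windows, and a run may lie in the rest of the chromosome. Regions were not assigned to genes, because no annotation of hg19 was used here. The windows also contain genes of other families, and the rest of the chromosome contains further zinc finger genes.

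The windows differed more in the number of called regions per Mb than the 5 together differed from the rest of the chromosome. They held 25.1 regions per Mb in shNT and 35.5 in shRBBP4, against 23.9 and 40.1 in the rest, whose length of 47.1 Mb includes the unsequenced centromere. Window 1, the longest, was the sparsest, with 10.4 regions per Mb in shNT and 16.9 in shRBBP4. Window 2 had 22.5 and 36.2, window 3 had 46.2 and 50, window 4 had 32.9 and 50.6, and window 5 had 40.3 and 52.8. Window 1 thus stood below the rest of the chromosome in both libraries, and windows 3, 4 and 5 stood above it in both.

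Within windows 1 and 5 the regions were unevenly placed. In window 1, 23 of 49 bins of 100 kb held no region of either library, and in window 5, 12 of 31 held none. In windows 2, 3 and 4 the empty bins numbered 0 of 16, 1 of 8 and 1 of 17. The longest stretch without a region of either library lay in window 1 from 22034817 to 23258547 and spanned 1224 kb. The next longest lay in window 5, from 57107202 to 57702456 (595 kb) and from 56189388 to 56622301 (433 kb). The densest bins were also in window 5. The bin from 59.0 to 59.1 Mb held 19 shNT and 27 shRBBP4 regions, that from 56.1 to 56.2 Mb held 17 and 27, and that from 58.8 to 58.9 Mb held 14 and 20. The first and the last of these lie near the end of the chromosome, and the other is at the opposite edge of the window.

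**Figure D1:**
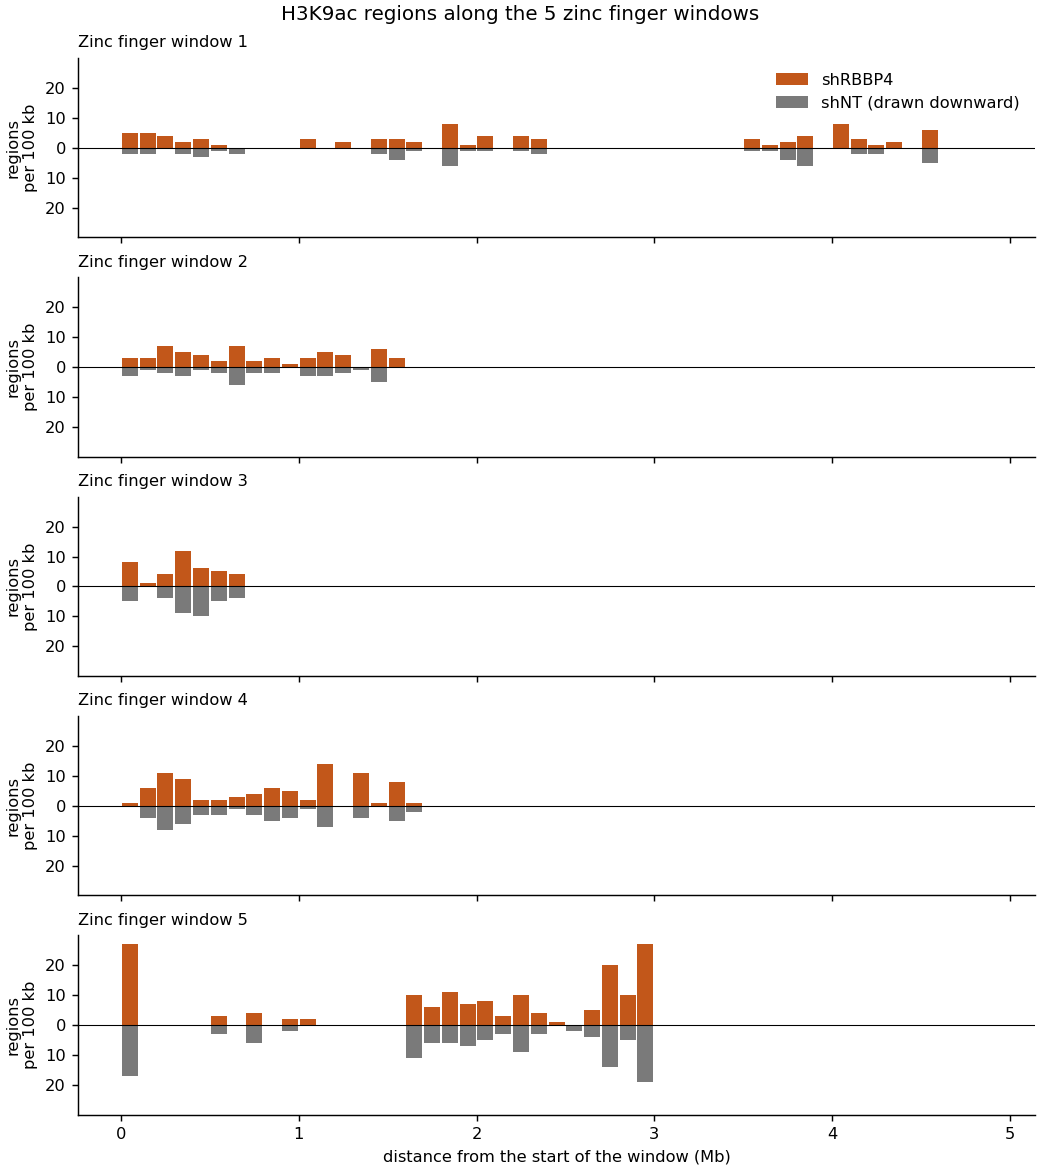
H3K9ac regions per bin of 100 kb along the 5 zinc finger windows, with the distance from the start of each window in Mb on the horizontal axis and the number of regions on the vertical axis; shRBBP4 counts are drawn upward and shNT counts downward. Window 1 has a long empty stretch in both libraries, and the fullest bins of window 5, with 27 shRBBP4 regions each, stand at its 2 edges.

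More regions were found in shRBBP4 than in shNT in each window, but the excess in the windows together was smaller than in the rest of the chromosome. With 427 shRBBP4 and 302 shNT regions, the ratio in the windows was 1.41 (1.22 to 1.64). With the lists cut to equal length it was 1.10 (0.938 to 1.29), an interval that included equal numbers. In the full lists the rest of chromosome 19 had a ratio of 1.68 (1.56 to 1.81), and the whole genome one of 1.465 (1.44 to 1.49). The interval of the windows included the ratio of the genome, and that of the rest lay above it. The ratio of the windows relative to the rest was 0.844 (0.714 to 0.999), and so its interval only just left out 1. This difference was not stable to the choice of unit or list. Regions of the same library no more than 1 kb apart were merged into clusters. Counted in these, the windows had 195 in shRBBP4 and 157 in shNT, and the relative ratio was 0.864 (0.677 to 1.10). Leaving out window 3 or window 5 also brought 1 into the interval, as did keeping the higher-scoring 50% of each list or cutting the lists to equal length. Among the strongest 5000 regions of each list the direction turned, with 69 and 45 regions in the windows (ratio 1.53) and 265 and 195 in the rest (1.36).

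The 5 windows did not differ in this ratio beyond their intervals. Window 1 had 83 regions in shRBBP4 and 51 in shNT (ratio 1.63, 1.13 to 2.35). Window 2 had 58 and 36 (1.61, 1.05 to 2.51), and window 4 had 86 and 56 (1.54, 1.08 to 2.19). Window 5 had 160 and 122 (1.31, 1.03 to 1.67). Window 3 stood lowest, with 40 and 37 regions (1.08, 0.674 to 1.74), and was the only window whose interval included equal numbers.

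**Figure D2:**
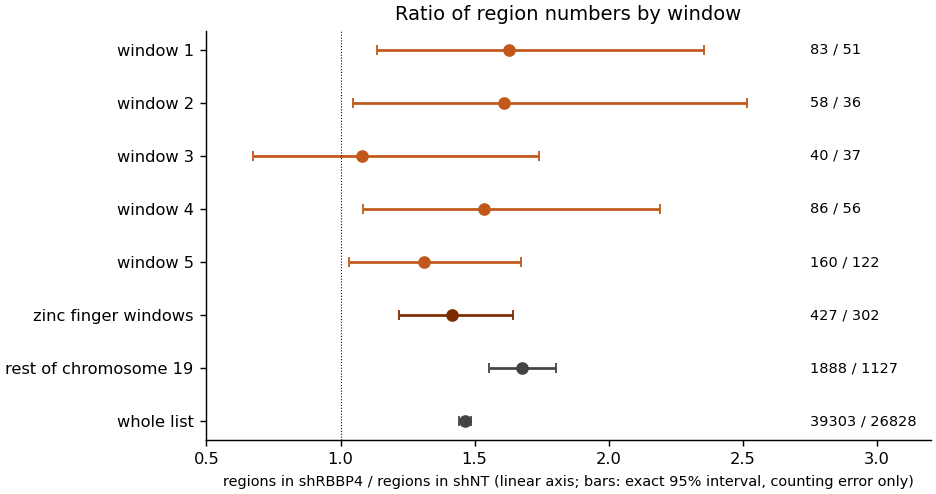
Number of shRBBP4 regions divided by the number of shNT regions (linear axis, dotted line at equal numbers) in each zinc finger window, in all 5 windows, in the rest of chromosome 19 and in the whole lists; points are ratios, bars exact 95% intervals for counting error, and the counts are printed at the right as shRBBP4 / shNT. Windows 3 and 5 stand lowest at 1.08 and 1.31, and the intervals of all 5 windows overlap.

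Covered length gave the same order for the windows at the low end. The shRBBP4 regions of the windows covered 132 kb and the shNT regions 81.6 kb, a ratio of 1.61, against 1.85 in the rest of the chromosome and 1.51 in the whole lists. Window 4 had the highest ratio, 30.7 kb against 15.2 kb (2.01). Window 2 followed at 17.3 and 8.81 kb (1.97) and window 1 at 25.1 and 13.4 kb (1.87). Windows 5 and 3 were lower, with 48.2 and 35.8 kb (1.35) and 10.3 and 8.33 kb (1.24). A sum over regions called separately moves with the number of regions called.

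Single regions in the windows had somewhat higher median widths than in the rest of the chromosome in both libraries. The intervals of the medians overlapped, in shNT only just. The medians of the whole lists were 210 bp in shNT and 213 bp in shRBBP4. The median was 218.5 bp in shNT (199 to 245) and 229 bp in shRBBP4 (210 to 253), against 188 bp (180 to 200) and 208 bp (199 to 219) in the rest of the chromosome. Window 4 had the widest, with medians of 252 bp in shNT and 302 bp in shRBBP4, and window 3 the narrowest, with 175 and 198 bp. Regions over 1 kb wide were rare. In shNT 2 of 302 passed 1 kb (0.662%, 0.0803 to 2.37), where the whole list had 2.14%. In shRBBP4 11 of 427 did (2.58%, 1.29 to 4.56), where the whole list had 2.62%. The rest of the chromosome had 1.33% (0.747 to 2.19) in shNT and 1.75% (1.21 to 2.45) in shRBBP4, with intervals that overlapped those of the windows. Window 5 held both of the shNT regions and 7 of the 11 shRBBP4 regions.

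The regions were near the middle of the shNT list by score and somewhat above the middle of the shRBBP4 list. The score is the authors' value per region and is used here only as a percentile of its own list, with equal scores given their mean rank. The median percentile in the windows was 51.2 in shNT, the same value as in the rest of the chromosome, because 1957 shNT regions share 1 score there. In shRBBP4 it was 59.7 (57.1 to 66.3), against 51.8 (51.8 to 57.1) in the rest. Above percentile 90 stood 22 of 302 shNT regions (7.28%, 4.62 to 10.8), where the whole list had 10.1%, and 50 of 427 shRBBP4 regions (11.7%, 8.82 to 15.1), where the whole list had 9.75%. The rest of the chromosome had 10.03% (8.33 to 11.9) in shNT and 10.5% (9.19 to 12.01) in shRBBP4. Neither share of the windows is separated from its list or from the rest by its interval.

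By window, the counts at the top of the lists were small. In window 1 none of the 51 shNT regions stood above percentile 90, with an exact interval from 0 to 6.98%, and 10 of 83 shRBBP4 regions did (12.0%, 5.93 to 21.0), so that the intervals overlap. Window 4 had 6 of 56 in shNT and 16 of 86 in shRBBP4 (18.6%, 11.02 to 28.4), the highest share of any window. Windows 2 and 3 had 2 each in shNT, with 6 and 4 in shRBBP4, and window 5 had 12 and 14.

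Regions of the shRBBP4 library were shared more often in the windows than in the rest of the chromosome. An overlap of 1 bp or more with any region of the other list made a region shared. Of the shRBBP4 regions of the windows 241 of 427 were shared (56.4%, 51.6 to 61.2), against 46.8% (44.5 to 49.0) in the rest and 50.04% in the whole list. Within 1 kb of an shNT region lay 351 of them (82.2%, 78.2 to 85.7), against 73.8% (71.8 to 75.8) in the rest and 74.3% in the whole list. Of the shNT regions 249 of 302 were shared (82.5%, 77.7 to 86.6), against 85.4% (83.2 to 87.4) in the rest and 77.0% in the whole list. A neighbour within 1 kb was present for 293 of the 302 (97.0%, 94.4 to 98.6), against 97.4% (96.3 to 98.3) in the rest and 93.8% in the whole list. The shNT shares of the windows and of the rest had overlapping intervals. The percent shared depends on the region numbers of both lists. The ratio of shRBBP4 to shNT regions was lower in the windows (1.41) than in the rest (1.68). The higher shRBBP4 share is therefore not separate from that ratio, and how far the ratio accounts for it was not tested.

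By score, shRBBP4 regions of the windows had the higher shared percent in 4 of 5 classes and the lower one in the highest class. Between percentiles 20 and 40 of the shRBBP4 list, 26 of 48 regions in the windows were shared (54.2%, 39.2 to 68.6), against 29.5% (24.3 to 35.1) in the rest. In the lowest class the shares were 28.6% (17.9 to 41.3) and 20.2% (16.0 to 25.02). Between percentiles 40 and 60 they were 41.7% (32.3 to 51.5) and 34.6% (30.3 to 39.0), and between 60 and 80 they were 64.3% (54.0 to 73.7) and 55.8% (50.4 to 61.0). In the highest class, above percentile 80, they were 80.9% (72.3 to 87.8) and 84.5% (80.8 to 87.8). The 20 to 40 class was the only 1 of 5 whose intervals did not overlap. By width, shRBBP4 regions under 150 bp were shared in 37.3% of 102 cases (27.9 to 47.4), against 24.1% (20.6 to 27.9) in the rest. Regions from 150 bp to under 300 bp were shared in 49.7% (41.8 to 57.6) and 40.3% (36.7 to 43.9), and regions from 300 bp to under 600 bp in 67.0% and 68.3%. Among the higher-scoring 50% of the shRBBP4 list 65.2% were shared in the windows and 63.1% in the rest.

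**Figure D3:**
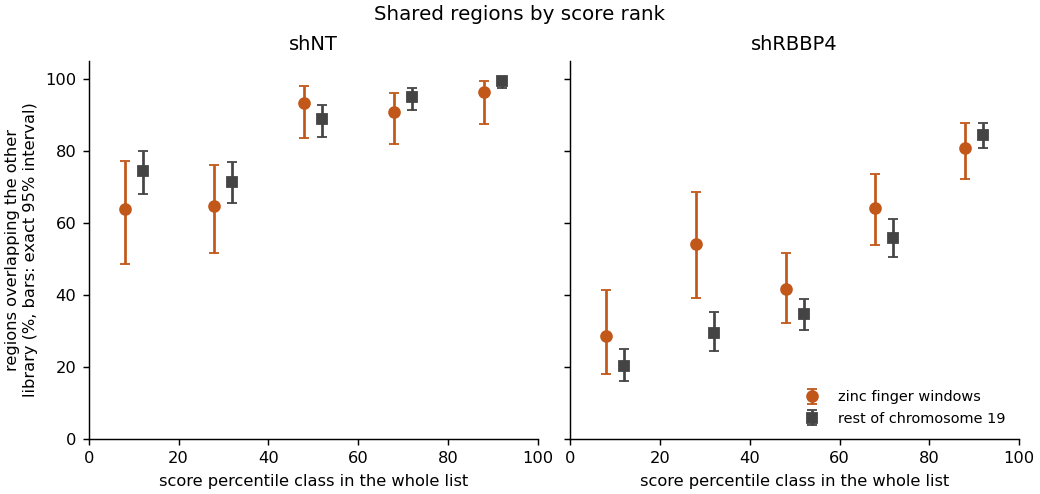
Percent of regions that overlap a region of the other library, by class of score percentile in the whole list, for shNT (left) and shRBBP4 (right); circles are the zinc finger windows, squares the rest of chromosome 19, and bars exact 95% intervals. In shRBBP4 the windows stand above the rest in the lower 4 classes, with separate intervals only between percentiles 20 and 40, and in the highest class they stand at 80.9% and 84.5%.

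Merging the regions of both lists by the same 1-kb rule gave 197 joint clusters in the windows. Both libraries contributed to 146 of them (74.1%, 67.4 to 80.1), against 61.1% (57.6 to 64.4) in the rest of the chromosome and 57.7% of all clusters in the genome. Clusters with shRBBP4 regions alone numbered 45 (22.8%, 17.2 to 29.3), against 35.7% (32.4 to 39.0) in the rest and 35.0% in the genome. Clusters with shNT regions alone numbered 6 (3.05%, 1.13 to 6.51), against 3.30% in the rest and 7.26% in the genome. Joint clusters of the windows were thus more often common to both libraries than elsewhere on the chromosome, and the intervals of the first pair of shares did not overlap. In the higher-scoring 50% of the lists the difference was smaller, at 61.0% in the windows and 55.6% in the rest. The share common to both libraries also depends on the region numbers of both lists and is not a separate result.

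Among the windows the common share ran from 17 of 28 clusters in window 2 (60.7%, 40.6 to 78.5) to 56 of 70 in window 5 (80.0%, 68.7 to 88.6). Window 1 had 28 of 41, window 3 had 15 of 19 and window 4 had 30 of 39. These intervals overlap. The 45 clusters found in shRBBP4 alone had a median best percentile of 57.1, and the 292 such clusters in the rest of the chromosome one of 40.5. In the windows 26 of the 45 were single regions, in the rest 209 of 292.

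Broad clusters were less frequent in the windows than in the rest of the chromosome. Of the 197, 20 spanned more than 2 kb (10.2%, 6.31 to 15.2), against 20.02% (17.3 to 22.9) in the rest and 19.6% in the genome. Window 5 held 12 of the 20 and had a share of 17.1% (9.18 to 28.0), near that of the rest, and without it the share was 6.30%. The median span of clusters common to both libraries was 1119 bp in the windows and 1382 bp in the rest. Clusters found in 1 library alone went the other way, with median spans of 450 bp and 203 bp for shRBBP4 and, over 6 and 27 clusters, of 265 bp and 125 bp for shNT. Counted in each library by itself, clusters had a median span of 687 bp in the windows and 559 bp in the rest in shNT, and of 761 bp and 780.5 bp in shRBBP4. Clusters of 1 library consisted of a single region in 38.9% of cases in shNT (31.2 to 46.9) and 32.8% in shRBBP4 (26.3 to 39.9), against 46.2% and 38.9% in the rest, with overlapping intervals. Where clusters held several shRBBP4 regions, the gaps inside them had a median of 160.5 bp (137 to 214), against 247.5 bp (230 to 263) in the rest. In shNT these gaps were 218 bp (150 to 248) and 238.5 bp (208 to 269), and the intervals overlapped.

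Few neighbouring clusters lay close together outside window 5. The median gap between neighbouring joint clusters was 32.6 kb in the windows (26.9 to 37.2) and 25.7 kb in the rest (22.6 to 27.8), with intervals that overlapped, and 42.7 kb in the genome. Gaps over 100 kb made up 14.1% in the windows, 11.4% in the rest and 29.7% in the genome. Gaps under 5 kb made up 14 of 192 in the windows (7.29%, 4.04 to 11.9), against 18.4% (15.8 to 21.3) in the rest and 15.8% in the genome. Window 5 held 11 of these 14, and its share of 15.9% was near that of the rest. In windows 1 to 4 the counts were 0 of 40, 1 of 27, 1 of 18 and 1 of 38. The median gap was 62.5 kb in window 1, 46.8 kb in window 2, 24.2 kb in window 3, 30.8 kb in window 4 and 18.4 kb in window 5. The medians of windows 3 (17.98 to 51.2) and 5 (13.2 to 26.5) were below that of the rest, with intervals that overlapped its interval.

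**Figure D4:**
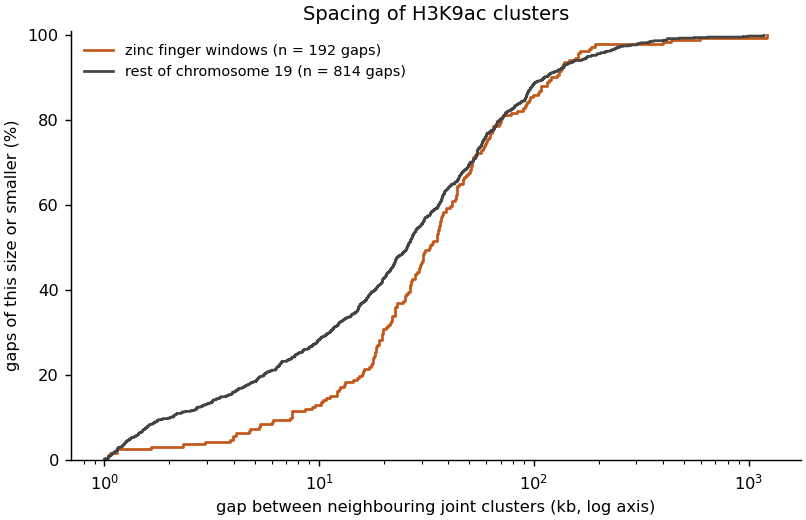
Cumulative percent of gaps between neighbouring joint clusters by gap length in kb (log axis), for the zinc finger windows (192 gaps) and the rest of chromosome 19 (814 gaps). The curve of the windows lies below that of the rest at short gaps, with 7.29% against 18.4% under 5 kb, and the curves are close at the third quartile, 60.2 and 57.9 kb.

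In clusters common to both libraries, shRBBP4 regions usually covered more bases. This was so in 115 of 146 clusters of the windows (78.8%, 71.2 to 85.1), against 85.8% (82.4 to 88.7) in the rest of the chromosome and 71.9% of all common clusters. The median covered length was 478 bp in shNT and 698.5 bp in shRBBP4, and the median difference was 199 bp. The windows were unlike each other. In window 2 shRBBP4 covered more in 17 of 17 clusters and in window 4 in 29 of 30. Window 1 had 23 of 28, and window 5 had 38 of 56 (67.9%, 54.0 to 79.7). In window 3 it was 8 of 15, with a median difference of 3 bp. The intervals of windows 2 (80.5 to 100) and 4 (82.8 to 99.9) lay above those of windows 3 (26.6 to 78.7) and 5.

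**Figure D5:**
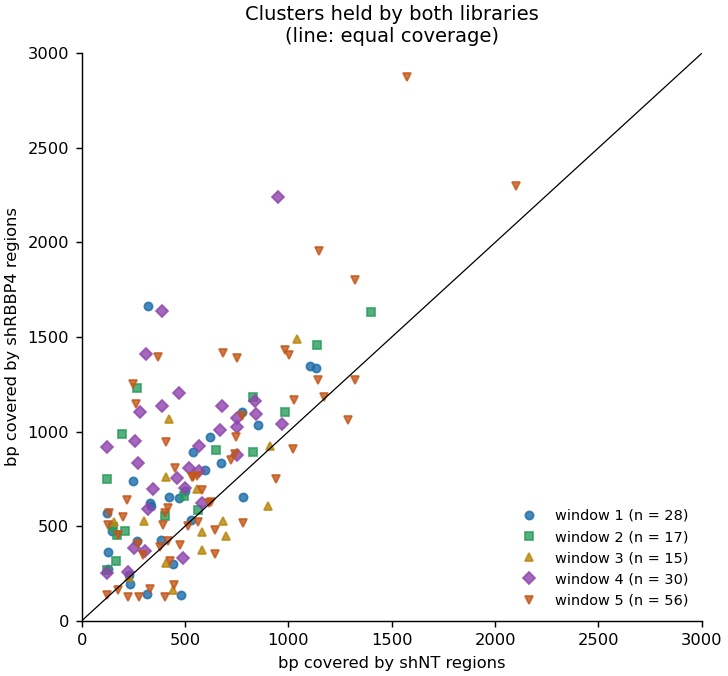
Bases covered by shNT regions (horizontal axis) and by shRBBP4 regions (vertical axis) in each of the 146 joint clusters held by both libraries; each point is 1 cluster, symbols mark the window, and the line marks equal coverage. Points lie above the line in 115 clusters, among them all 17 of window 2 and 29 of 30 of window 4, while window 3 lies on both sides.

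The clusters kept their rank order in part between the libraries. Across the 146 common clusters the Spearman correlation of the best percentile in shNT and in shRBBP4 was 0.51. Across the 500 of the rest it was 0.67, and across all common clusters of the genome 0.61. It was 0.07 over the 28 clusters of window 1 and 0.61 over the 56 of window 5. Windows 2, 3 and 4 had 0.26, 0.72 and 0.51. These values describe clusters within 1 pair of libraries, and clusters are not replicates. In the windows 16 of the 146 stood above percentile 90 in both libraries (10.96%, 6.40 to 17.2), against 14.8% in the rest and 14.4% of all common clusters. Window 5 held 8 of them, window 4 held 4, windows 2 and 3 held 2 each, and window 1 held none.

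The strongest member of the shNT list lay in window 5, from 56826320 to 56826476, at percentile 99.6. It belonged to a cluster of 895 bp from 56825582 to 56826476, covered over 623 bp in shNT and 625 bp in shRBBP4, and its shRBBP4 counterpart stood at percentile 97.6. The strongest member of the shRBBP4 list also lay in window 5, from 56111116 to 56111301, at percentile 99.7, with a counterpart at percentile 97.3 in shNT. In window 4 the top region of both libraries was the same site, from 52772881 to 52773042 in shNT (percentile 99.1) and from 52772895 to 52773726 in shRBBP4 (percentile 98.9). The top sites of windows 4 and 5 were therefore strong in both libraries.

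In windows 1 to 3 the top sites of the libraries differed. The top shRBBP4 region of window 3, from 44258900 to 44259074, stood at percentile 99.3, and its best shNT counterpart at 78.2. The top shNT region there, from 44669297 to 44669447, stood at 94.0 and had a counterpart at 97.999. In window 2 the top shRBBP4 region, from 37018325 to 37019112, stood at 96.1 over an shNT region at 51.2. The top shNT region of window 2, from 36706135 to 36706839, stood at 94.4 over an shRBBP4 region at 85.1. In window 1 the top shRBBP4 region ran from 23576974 to 23577952 at percentile 97.4, with a counterpart at 76.2, and the top shNT region from 24216608 to 24216990 stood only at 87.8, with a counterpart at 84.3. Each of the 10 top regions, 1 per library and window, had a counterpart in the other library.

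The strongest site without any shNT region nearby was a broad cluster in window 1. It ran from 23729907 to 23734043, the widest cluster of that window at 4137 bp, and held 8 shRBBP4 regions that covered 2439 bp. Its highest region, from 23733244 to 23733594, stood at percentile 96.0 of the shRBBP4 list, and the nearest shNT region was 134909 bp away. In window 2 the corresponding site was a single region of 325 bp from 37663256 to 37663580, at percentile 94.2. Those of windows 3, 4 and 5 were weaker. They ran from 44556788 to 44556992 (percentile 73.0), from 53104597 to 53104917 (83.2) and from 59084560 to 59084718 (71.8), the last only 1397 bp from an shNT region and in a cluster with it. Above percentile 90, 3 shRBBP4 regions of the windows had no shNT region within 1 kb, 2 of them in window 1 and 1 in window 2. These were 3 of 50, against 7 of 199 in the rest of the chromosome and 109 of 3832 (2.84%) in the whole list.

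Sites of the shNT list without an shRBBP4 region within 1 kb numbered 9 of 302. In the rest of the chromosome they were 29 of 1127, and in the whole list 1674 of 26828. In the other direction the numbers were 76 of 427, 494 of 1888 and 10114 of 39303. The windows thus had fewer such sites than the whole list in both directions, relative to their region numbers. Against the rest of the chromosome this held for shRBBP4 alone. Of the shNT regions, 97.0% in the windows and 97.4% in the rest had an shRBBP4 region within 1 kb. The highest of the shNT sites was a single region of window 4, from 52873228 to 52873520, at percentile 87.8. In window 1 it was the region from 20349064 to 20349237 at 76.2, one of a pair, and in window 5 that from 58694458 to 58694641 at 70.3, also one of a pair. Those of windows 2 and 3, from 38086311 to 38086433 and from 44438040 to 44438184, stood at 12.2 and 46.5. No shNT region of this kind in the windows stood above percentile 90, nor did any of the 29 in the rest of the chromosome, while the whole list had 4 among 2699 regions above percentile 90 (0.148%). The shNT list is shorter, and without known depths none of these sites measures a gain or a loss of the mark.

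The largest differences in covered length within common clusters were towards shRBBP4. In window 1 the cluster from 20011096 to 20013031 was covered over 318 bp in shNT and 1662 bp in shRBBP4. In window 5 the widest cluster of all windows, from 59065692 to 59071452 (5761 bp), had 5 shNT regions covering 1574 bp and 9 shRBBP4 regions covering 2872 bp. In window 4 the cluster from 52691857 to 52694816 had 948 and 2242 bp. Another of window 4, its widest at 3592 bp, ran from 53494050 to 53497641 and had 387 and 1637 bp. In window 2 the cluster from 37262580 to 37263949 had 268 and 1232 bp, and in window 3 that from 44616847 to 44618364 had 420 and 1066 bp. In these 6 clusters shRBBP4 coverage was larger by between 646 and 1344 bp.

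Differences towards shNT were smaller. The cluster of window 1 from 21265062 to 21265792 had 480 bp in shNT and 137 in shRBBP4, and that of window 3 from 44645294 to 44646816 had 901 and 607 bp. In window 5 the cluster from 58816342 to 58817458 had 643 and 352 bp, and in window 4 that from 53935286 to 53935983 had 491 and 334 bp. Window 2 had no such cluster, and its smallest difference was 26 bp in favour of shRBBP4, from 37861423 to 37862746. The remaining widest clusters were closer to balance. That of window 3, from 44257951 to 44261823 (3873 bp), had 1041 bp in shNT and 1491 in shRBBP4, and that of window 2, from 38144712 to 38146915 (2204 bp), had 1401 and 1630.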

How the data were processed

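H3K9ac regions of 1 shNT and 1 shRBBP4 library of T98G cells were used. The authors deposited 1 list of regions per library, each row with a chromosome, start, end, name and score, and the scale of the score is not given. The track lines name macs2 and PE, per the file headers. Per the submitters' processing notes, the tools include SICER, Picard, BWA and bcl2fastq 2.15.0 and the builds hg19 and GRCh37, with no role stated. The caller that made the lists, its threshold and any use of the input: not given in the sources used here. Depth is unknown.

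Positions are on hg19 with starts counted from 1. The distance between regions is the number of bases between them. Shares have exact Clopper-Pearson intervals, medians exact binomial order-statistic intervals, and ratios exact conditional intervals, all at 95%. Named regions are, per window, the highest-scoring one of each list, the highest-scoring one without a counterpart within 1 kb, the widest joint cluster and the common clusters with the largest difference in covered length in each direction, and overall the 3 densest bins of 100 kb and the 3 longest gaps. The members and these rules were chosen with earlier results of these data known. The 2-kb limit for broad clusters, the 5-kb limit for gaps, the gaps inside clusters and the counts of more covered clusters were added after seeing the data. Alternatives were other overlap rules, joined gaps, score limits, list lengths and leaving out each window. The status of zinc finger gene promoters was planned and not run, since no annotation of hg19 was used. Overlap, the joining of overlapping regions and the interval of a ratio were tested on simulated lists. Those lists held no separate regions within 1 kb of each other, so joining across a gap was not tested. The intervals of shares and medians were not tested either. Software was scipy 1.17.1, pandas 2.3.3, numpy 2.4.6 and matplotlib 3.10.9 under Python 3.11.15.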

Additional observations from a re-analysis of the deposited data

How the results depend on the processing

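No paired analysis was possible because each shRNA has 1 library. The status of zinc finger gene promoters and its alternative were not run. Unknown depth limits each comparison of region number. Where a value moved, the cause was not tested beyond what the alternative's construction gives (fewer regions, a stricter or looser rule).

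The log2 ratio of the windows relative to the rest, -0.24 in the full lists, was 0.17 in the strongest 5000 regions of each list (interval -0.46 to 0.82). It lay between -0.29 and -0.18 when 1 window was left out, and stayed negative in clusters, by covered length, in the higher-scoring 50% and in lists of equal length. The ratio itself lay between 1.37 and 1.48 with 1 window left out. It fell to 1.10 in lists of equal length, with an interval (0.938 to 1.29) that included equal numbers. With the higher-scoring 50% of each list, median widths were 248.5 bp (shNT) and 307 bp (shRBBP4), and with joined clusters median spans were 687 and 761 bp. Leaving out a window gave 213.5 to 226.5 bp in shNT and 216 to 248 bp in shRBBP4. The median shRBBP4 percentile was 53.6 by width and 54.9 within chromosome 19, and between 59.7 and 62.9 with 1 window left out, and the shNT median lay between 51.2 and 53.1.

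The shared percent of shNT and shRBBP4 regions was 76.5 and 51.3 with 50% of the shorter region and 42.4 and 29.98 with reciprocal 50%. It was 97.0 and 82.2 at a distance of up to 1 kb, 73.5 and 62.0 with equal list lengths, and 93.7 and 65.2 in the upper 50% by score. In each of these 5 settings the shRBBP4 share was higher in the windows than in the rest and the shNT share lower. For shRBBP4 the difference ran from 65.2 against 63.1% in the upper 50% to 51.3 against 42.4% with 50% of the shorter region. For shNT it ran from 97.0 against 97.4% within 1 kb to 73.5 against 75.8% with equal list lengths. The settings reuse the same lists and are not independent of each other. Leaving out a window gave 80.1 to 86.7% and 54.8 to 58.1%. The percent of joint clusters held by both libraries was 66.7 when gaps of up to 500 bp were joined and 61.0 in the higher-scoring 50%, where 30.8% held shRBBP4 and 8.14% shNT regions alone. Leaving out a window gave 70.9 to 76.3% for both, 20.7 to 26.8% for shRBBP4 alone and 2.36 to 3.37% for shNT alone. Broad clusters made up 3.46% with gaps of 500 bp, 4.07% in the higher-scoring 50%, 3.05% at a limit of 3 kb and 6.30 to 11.5% with 1 window left out. In the rest these 3 shares were 8.02, 12.0 and 7.33%.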
